A study of Mus musculus with 12 samples.

Results

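The Slc25 carriers were compared between skeletal muscle of mice carrying a mutant (R225Q) AMPK γ3 transgene and muscle of their wild-type littermates. Members were chosen by symbol: every gene whose probe sets carry the single symbol Slc25a followed by a number. This gave 33 genes with 65 probe sets, of 12393 genes and 22626 probe sets in all, and the brightest probe set, by its mean log2 value, stood for each gene. Each genotype had 6 arrays, 1 mouse per array, of white gastrocnemius, the part of this calf muscle richest in fast fibres. The transgenic mice carried the R225Q form of AMPK γ3, a regulatory subunit of the energy-sensing kinase AMPK, and the controls were wild type at this transgene. Both genotypes were C57BL/6 males of generation F5, aged 17 to 18 weeks and fasted overnight. The promoter of the transgene and the number of founder lines are not given in the sources used here. Transgenic mice are numbered 1 to 6 and wild-type mice 7 to 12.

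Slc25 proteins sit mostly in the inner mitochondrial membrane, which is otherwise closed to charged metabolites. Each carrier moves or exchanges a small set of solutes, such as ADP for ATP, malate for 2-oxoglutarate, or acylcarnitine for carnitine. In muscle they link ATP made in the matrix to ATP use by the contractile proteins, and bring fuel and cofactors to the matrix enzymes.

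Arrays correlated with each other at 0.9848 to 0.997 on the log2 scale. The tissue label fitted the markers: the mean of 9 fast fibre genes, Myh4 and Ckm among them, lay between 13.48 and 13.62 log2 units on transgenic arrays and between 13.47 and 13.57 on wild-type arrays. All 7 slow fibre genes had negative log2 fold changes, with a median of -0.52 and no call in limma, and their mean varied widely between arrays, from 7.48 to 8.57 on transgenic and from 7.47 to 9.38 on wild-type arrays. The means of 6 endothelial genes were 7.60 to 7.84 on transgenic and 7.49 to 7.65 on wild-type arrays, and those of 4 adipocyte genes 8.02 to 8.80 on transgenic and 8.51 to 9.31 on wild-type arrays. For 5 macrophage genes the ranges were 6.65 to 6.91 on transgenic and 6.68 to 6.87 on wild-type arrays. For 2 Schwann cell genes they were 8.69 to 9.24 on transgenic and 8.51 to 9.11 on wild-type arrays, and for 5 fibroblast and tendon genes 9.23 to 9.68 on transgenic and 9.26 to 9.78 on wild-type arrays. All 6 endothelial genes were positive, with a median log2 fold change of 0.19, and 4 of them had an unadjusted p under 0.05 in limma. All 4 adipocyte genes were negative, with a median of -0.31 and 2 at an unadjusted p under 0.05 in limma, Adipoq (-1.01) and Lep (-0.52). Within hybridization days 1 and 2, described below, Adipoq was at -0.16 and -1.85, and Lep at -0.31 and -0.73. All 5 fibroblast and tendon genes were negative, with a median of -0.14, both Schwann cell genes were positive, and 2 of 5 macrophage genes were. None of these marker genes passed after adjustment in limma, and their part in the values of the carriers was not tested. The settings text places the arrays on 2 hybridization days, with 3 arrays of each genotype on each day. Within a day the arrays fell into runs, split where start times lay more than 30 minutes apart. These runs did not hold the genotypes equally. Transgenic mouse 1 and wild-type mouse 7, both on day 1, were run on chips of a smaller lot.

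No Slc25 carrier passed the test in either direction. Of the 33 genes 0 reached an adjusted p under 0.05 in limma, where 0.0888% of all genes did (0.0565% higher and 0.0323% lower in transgenic muscle), and each had an adjusted p of 0.999. Log2 fold changes were positive for 19 members and negative for 14, and 49.4% of all genes were positive. Their median was 0.0048, beside -0.0013 over all 12393 genes. At an unadjusted p under 0.05 limma found 1 member, Slc25a39, where 4.91% of all genes were found. The genotypes overlapped in every one of the 33, and were separate for 0.533% of all genes (0.282% with transgenic higher).

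The intervals show how large a difference the representative probe sets leave possible. Differences of very bright and very dim sets are compressed on these arrays. Other sets of a gene can lie elsewhere: the dimmest set of Slc25a4 had an interval of 0.07 to 0.28, against -0.10 to 0.12 for its representative. The 95% limma intervals of the 33 log2 fold changes ran from no lower than -0.37 (Slc25a25) to no higher than 0.52 (Slc25a36), which is between 0.774-fold and 1.43-fold. For 28 members the interval lay within 0.3 of 0, and for 12 of them within 0.2. A log2 fold change of at least 0.1 in size was seen in 7 members, beside 16.2% of all genes. In whole muscle, fewer cells of a type and less RNA per cell cannot be told apart.

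**Figure D1:**
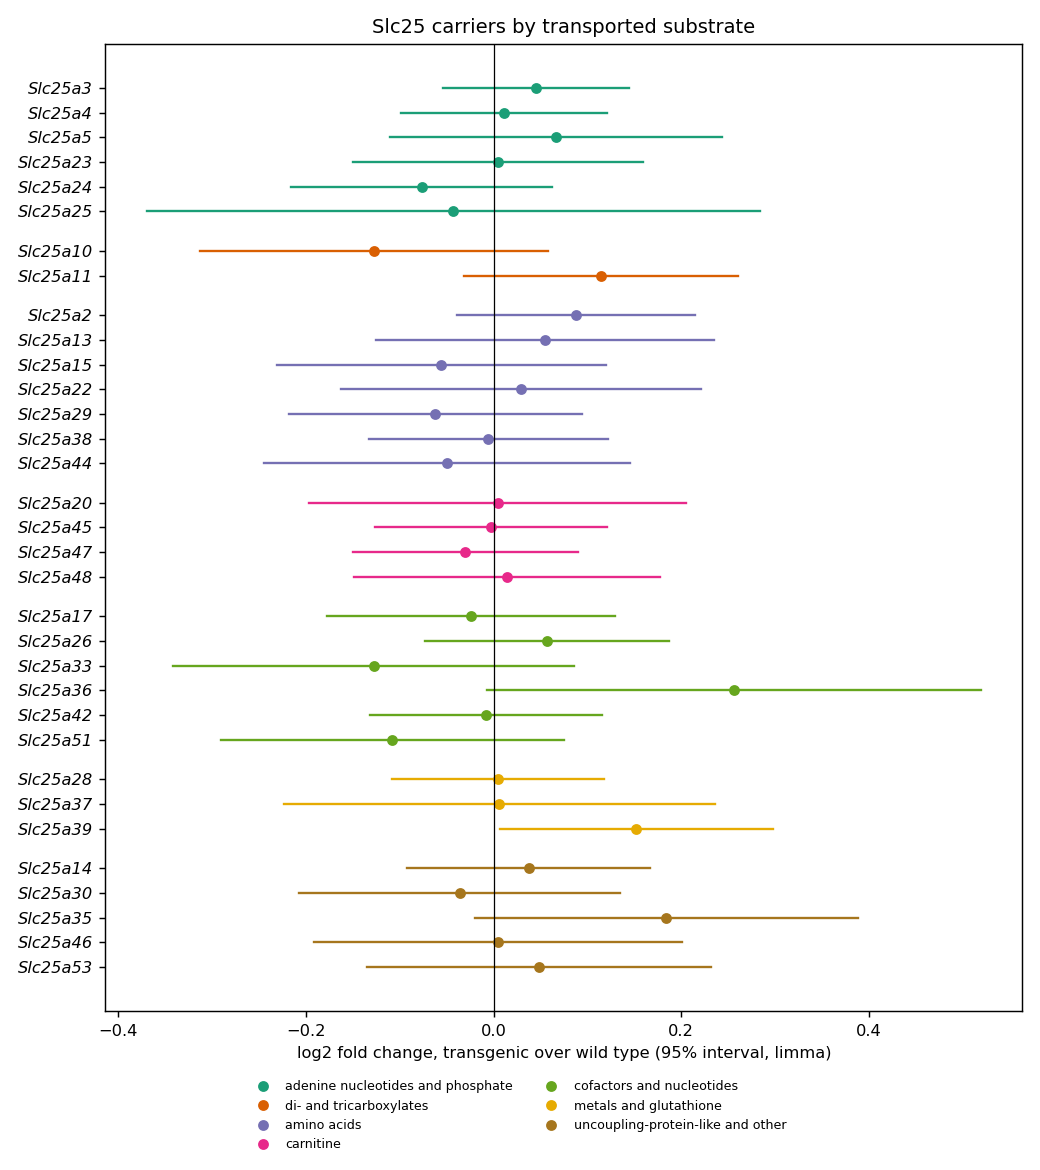
Log2 fold change of each of the 33 Slc25 genes, transgenic over wild type (x axis), with its 95% limma interval, in rows grouped by assigned substrate or role. Intervals cross 0 for all genes except Slc25a39, and the points lie between -0.13 (Slc25a33) and 0.26 (Slc25a36).

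Carriers of adenine nucleotides and phosphate had 6 measured members, of which 4 were positive and 2 negative, with values between -0.08 and 0.07. Slc25a4, the ADP/ATP carrier that predominates in heart and skeletal muscle, had 13.11, 13.19 and 13.29 log2 units as the lowest, median and highest transgenic value, against 13.12, 13.15 and 13.30 in wild type. The genotypes covered the same range, and the log2 fold change was 0.01 ± 0.05 (SE; limma adjusted p = 0.999), with an interval of -0.10 to 0.12. Slc25a5, the ADP/ATP carrier of dividing and many other cells, had 8.54, 8.82 and 8.91 in transgenic against 8.39, 8.78 and 8.87 in wild-type muscle. The lowest array of each genotype was that of the smaller chip lot, and the log2 fold change was 0.07 ± 0.08 (limma adjusted p = 0.999). Slc25a3, which brings phosphate into the matrix for ATP synthase, had 12.57, 12.64 and 12.71 in transgenic mice, against 12.52, 12.59 and 12.65 in wild-type mice. It had the smallest spread of the family, a pooled SD within genotype of 0.051, and its log2 fold change was 0.05 ± 0.05 (limma adjusted p = 0.999), with an interval of -0.05 to 0.14.

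The other 3 members of this group exchange ATP-Mg for phosphate under control of calcium. Slc25a23 was at 0.0045 ± 0.073 (6.76 log2 units in transgenic, 6.76 in wild type) and Slc25a24 at -0.08 ± 0.07 (4.40 log2 units in transgenic, 4.48 in wild type). Slc25a25 was at -0.04 ± 0.15 and varied most of all carriers, with a pooled SD of 0.32, beside a median of 0.142 over the 33 members and 0.12 over all genes. It is described after the other carriers.

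Malate and 2-oxoglutarate carriers bear on the malate-aspartate shuttle, which passes reducing power of cytosolic NADH to the matrix. Slc25a11, the malate/2-oxoglutarate exchanger of that shuttle, had 10.40, 10.57 and 10.65 log2 units in transgenic against 10.19, 10.46 and 10.56 in wild-type muscle. Its log2 fold change was 0.11 ± 0.07 (SE; limma adjusted p = 0.999), with 4 of 6 transgenic mice above the mean of wild type, and it was 0.06 without the smaller chip lot, whose wild-type array 7 was the lowest. Slc25a10, which exchanges malate or succinate for phosphate, was at -0.13 ± 0.09 (limma adjusted p = 0.999). Its transgenic values of 7.81, 7.88 and 7.98 stood against 7.86, 7.94 and 8.47 in wild type. The highest value was wild-type mouse 7, and without the smaller lot the log2 fold change was -0.05. The aspartate/glutamate carrier Slc25a12, the other carrier of the shuttle in muscle, was not analysed here.

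Enzymes of the NADH shuttles were listed for comparison. The list of 6 holds Got1, Got2, Mdh1 and Mdh2 of the malate-aspartate shuttle, and Gpd1 and Gpd2 of the glycerol phosphate shuttle, which uses no Slc25 carrier. In this list 5 were positive, the median log2 fold change was 0.15, and 0 passed over all probe sets. An unadjusted p under 0.05 in limma was seen for 3 (Mdh1, Got1 and Got2), beside 4.91% of all genes. Mdh1, the cytosolic malate dehydrogenase, averaged 12.11 ± 0.14 log2 units in transgenic against 11.89 ± 0.08 in wild type (SD, n = 6 each; limma adjusted p = 0.552). Got1, the cytosolic aspartate aminotransferase, averaged 11.11 ± 0.18 in transgenic and 10.89 ± 0.06 in wild-type mice (limma adjusted p = 0.675). Their log2 fold changes were 0.22 ± 0.07 for Mdh1 and 0.23 ± 0.07 for Got1 (SE). Got2 was at 0.17 ± 0.06 and Mdh2 at 0.10 ± 0.05, while Gpd1 was at -0.0064 ± 0.071 and Gpd2 at 0.13 ± 0.09. The carrier Slc25a11 had the sign of the malate-aspartate enzymes, and whether its value differed from theirs was not tested.

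Amino acid carriers had 7 measured members, 3 positive and 4 negative, between -0.06 and 0.09. Slc25a13, the aspartate/glutamate carrier best known from liver, was at 0.05 ± 0.08 (7.78 log2 units in transgenic, 7.72 in wild type). Slc25a22, a glutamate carrier, was at 0.03 ± 0.09 (8.43 log2 units in transgenic, 8.40 in wild type), and Slc25a15, the ornithine carrier of the urea cycle, at -0.06 ± 0.08 (6.81 log2 units in transgenic, 6.86 in wild type). Slc25a38, which supplies glycine for haem synthesis, was at -0.0057 ± 0.060 (7.94 log2 units in transgenic, 7.95 in wild type). Slc25a44, a carrier of branched-chain amino acids, was at -0.05 ± 0.09 (8.14 log2 units in transgenic, 8.19 in wild type), and Slc25a29, a carrier of basic amino acids, at -0.06 ± 0.07 (7.65 log2 units in transgenic, 7.71 in wild type). Slc25a2, described as an ornithine carrier in human, was dim here: its lowest, median and highest transgenic values were 4.83, 4.91 and 5.02 log2 units, against 4.64, 4.87 and 4.96 in wild type. Every one of the 6 transgenic mice exceeded the mean of wild type, yet the genotypes overlapped, and the log2 fold change was 0.09 ± 0.06 (SE; limma adjusted p = 0.999), with -0.01 on day 1 and 0.19 on day 2.

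The group listed under carnitine held 4 members between -0.03 and 0.01, and their intervals together reached from -0.20 to 0.21. It joins Slc25a20 with Slc25a45, Slc25a47 and Slc25a48, whose carriage of carnitine is not shown by these data. Slc25a20, the carnitine/acylcarnitine translocase, moves activated long-chain fatty acids into the matrix for oxidation and is used heavily in fasting. It had 9.38, 9.48 and 9.86 log2 units in transgenic against 9.19, 9.61 and 9.68 in wild-type muscle. The ranges overlapped, with the highest value in transgenic mouse 4 and the lowest in wild-type mouse 7, and the log2 fold change was 0.0046 ± 0.09 (SE; limma adjusted p = 0.999). Slc25a48 was at 0.01 ± 0.08 (7.12 log2 units in transgenic, 7.11 in wild type), Slc25a45 at -0.0025 ± 0.058 (7.48 log2 units in transgenic, 7.48 in wild type) and Slc25a47 at -0.03 ± 0.06 (6.63 log2 units in transgenic, 6.66 in wild type).

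**Figure D2:**
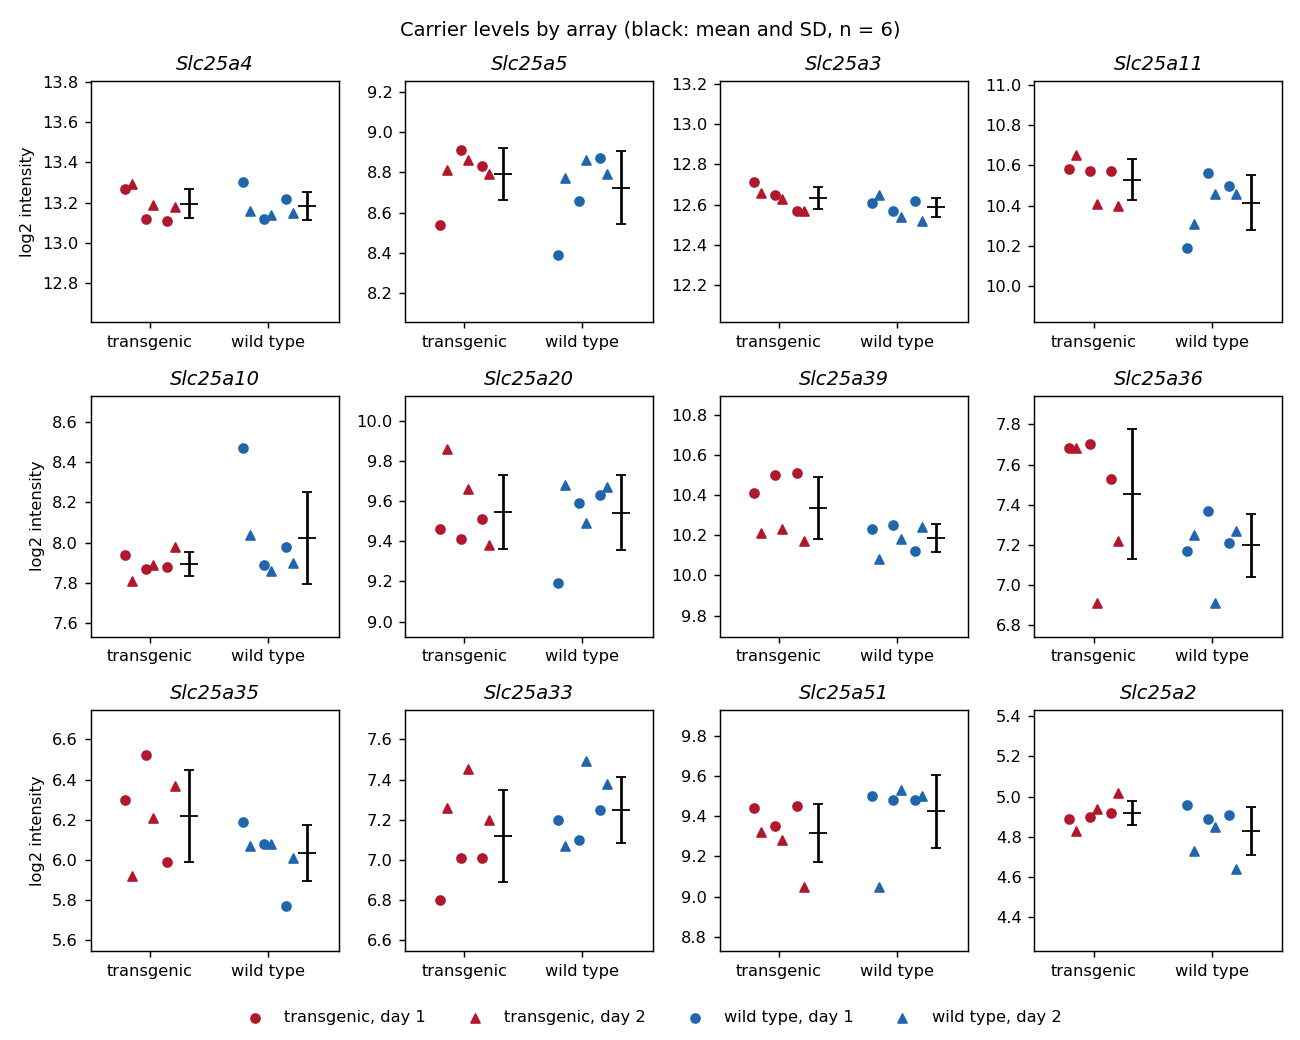
Log2 intensity (y axis, each panel spanning 1.2 log2 units) of 12 carriers on each array, transgenic on the left and wild type on the right of each panel, with circles for day 1, triangles for day 2 and black bars for the mean and SD. The genotypes overlap in every panel, and the 3 transgenic day 1 arrays of Slc25a39 stand above the rest.

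Cofactor and nucleotide carriers had 6 measured members, 2 positive and 4 negative. They held both ends of the family: Slc25a36 had the highest log2 fold change and Slc25a33 the lowest, and both carry pyrimidine nucleotides into mitochondria. Slc25a36 had 6.91, 7.61 and 7.70 log2 units in transgenic against 6.91, 7.23 and 7.37 in wild-type muscle. Transgenic mice 1 to 4 lay above all wild-type arrays, and transgenic mouse 5 was as low as the lowest wild-type array. The log2 fold change was 0.26 ± 0.12 (SE; limma adjusted p = 0.999), its second probe set gave 0.14 ± 0.09, and leaving out 1 array moved the first between 0.20 and 0.36.

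Slc25a33 had 6.80, 7.10 and 7.45 log2 units in transgenic against 7.07, 7.22 and 7.49 in wild-type muscle. The lowest value was transgenic mouse 1, and the log2 fold change, -0.13 ± 0.10 with an adjusted p of 0.999 in limma, was -0.07 without the smaller chip lot. It was -0.25 on day 1 and -0.01 on day 2. Slc25a51, the NAD+ carrier, was at -0.11 ± 0.09 (limma adjusted p = 0.999), with 9.05, 9.34 and 9.45 in transgenic mice against 9.05, 9.49 and 9.53 in wild-type mice. Its other probe sets were at 0.06 and 0.09, so the sign rested on the probe set. Slc25a26, which imports S-adenosylmethionine, was at 0.06 ± 0.06 (7.90 log2 units in transgenic, 7.84 in wild type), Slc25a42, a coenzyme A carrier, at -0.0082 ± 0.058 (8.39 log2 units in transgenic, 8.40 in wild type), and Slc25a17, which sits in peroxisomes, at -0.02 ± 0.07 (6.84 log2 units in transgenic, 6.86 in wild type).

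Among carriers of iron and glutathione all 3 measured members were positive, 2 of them within 0.01 of 0. The mitoferrins, which bring iron to the matrix for haem and iron-sulphur clusters, were at 0.0048 ± 0.053 (Slc25a28, 8.55 log2 units in transgenic, 8.55 in wild type) and 0.0063 ± 0.11 (Slc25a37, 8.11 log2 units in transgenic, 8.10 in wild type). Slc25a39, a carrier needed for glutathione in mitochondria, had 10.41, 10.50 and 10.51 log2 units in the transgenic mice of day 1 and 10.21, 10.23 and 10.17 in those of day 2. Wild-type values were 10.23, 10.25 and 10.12 on day 1 and 10.08, 10.18 and 10.24 on day 2. The transgenic arrays of day 1 were thus above all the others, while those of day 2 overlapped with wild type.

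Over both days Slc25a39 averaged 10.34 ± 0.15 log2 units in transgenic against 10.19 ± 0.07 in wild type (SD, n = 6 each). The log2 fold change was 0.15 ± 0.07 (SE), or 1.11-fold, with an interval of 0.0072 to 0.30, an unadjusted p of 0.0408 and an adjusted p of 0.999 in limma. All 3 of its probe sets were positive, the other 2 at 0.23 ± 0.07 (limma adjusted p = 0.597) and 0.19 ± 0.10. The representative and the dimmest set are of the kind that Affymetrix marks as sharing probes with other transcripts, so these 2 may read other transcripts too. By day the representative set gave 0.27 ± 0.08 and 0.03 ± 0.07, the second 0.38 and 0.07, and the dimmest 0.37 and 0.0090. The difference between the days, -0.24 ± 0.10, had an unadjusted p of 0.0366 and an adjusted p of 0.999 in limma. Of the 6 endothelial markers, all were positive on day 1 and 5 on day 2. Cdh5 was at 0.40 on day 1 and 0.16 on day 2, Emcn at 0.30 and 0.08, Tek at 0.22 and 0.03, and Pecam1 at 0.22 and -0.07. Kdr, at 0.22 and 0.17, and Esam, at 0.18 and 0.19, were closer between the days. Genes of other lists also differed between the days: Mbp was at 0.51 and 0.03, Fabp4 at 0.17 and -0.26, and Tspo at 0.42 and -0.13. Others, such as Pmp22 at 0.06 and 0.03 and Dcn at 0.03 and -0.03, were closer. The part of all these genes in the Slc25a39 values was not tested.

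The uncoupling-protein-like and remaining carriers had 5 measured members, 4 positive and 1 negative. Slc25a35, whose substrate is not settled, had 5.92, 6.25 and 6.52 log2 units in transgenic against 5.77, 6.08 and 6.19 in wild-type muscle. The log2 fold change was 0.18 ± 0.10 (SE; limma adjusted p = 0.999), with 4 of 6 transgenic mice above the mean of wild type. Slc25a14 and Slc25a30, which resemble uncoupling proteins, were at 0.04 ± 0.06 (7.01 log2 units in transgenic, 6.97 in wild type) and -0.04 ± 0.08 (8.30 in transgenic, 8.34 in wild type). Slc25a46, an outer membrane member tied to mitochondrial shape, was at 0.0049 ± 0.092 (8.72 log2 units in transgenic, 8.71 in wild type), and Slc25a53 at 0.05 ± 0.09 (7.80 log2 units in transgenic, 7.75 in wild type).

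Relatives that do not carry an Slc25a symbol, the uncoupling proteins and Mtch proteins, had 4 measured members, 3 positive, with a median log2 fold change of 0.03 and 0 passing. Mtch2, an outer membrane member of the carrier fold, was at 0.09 ± 0.08, and Ucp1, the uncoupling protein of brown fat, at -0.06 ± 0.08. Of 14 measured genes for other mitochondrial transport, such as the porins and carnitine palmitoyltransferases, 9 were positive, the median was 0.02 and 0 passed. The smallest p in that list belonged to Cpt2, at 0.10 ± 0.07, and Tspo, at 0.14 ± 0.10 (limma adjusted p = 0.999 for both).

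The probe sets of 1 gene did not always give 1 answer. Of the 33 carriers 18 had a single probe set and 15 had several, and in 8 of those 15 all sets shared a sign. Over all 65 probe sets 0 passed in limma, where 0.0707% of all probe sets did (0.0442% higher, 0.0265% lower), and 3 had an unadjusted p under 0.05, where 4.63% of all did. Of all probe sets 48.6% had a positive log2 fold change. The 3 were 2 sets of Slc25a39 and the dimmest set of Slc25a4.

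That set of Slc25a4 read 6.59, 6.68 and 6.76 log2 units as the lowest, median and highest transgenic value, against 6.43, 6.51 and 6.56 in wild type. It was the only one of the 65 in which the genotypes did not overlap, beside 0.504% of all probe sets (0.243% with transgenic higher). Its log2 fold change was 0.18 ± 0.05 (SE; unadjusted p = 0.00319, adjusted p = 0.499 in limma), with 0.17 on day 1 and 0.18 on day 2. The brighter sets of the gene were at 0.01, 0.0029 and 0.13, so the value of the gene depended on the probe set. Slc25a5 had 8 probe sets between -0.02 and 0.09. The Slc25a4 set at 0.0029 carries the same mark for shared probes as the marked sets of Slc25a39, and the dimmest Slc25a4 set does not. Several sets of Slc25a5 and the representative set of Slc25a29 carry the mark too. How the signal of marked sets is divided between similar transcripts is uncertain.

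**Figure D3:**
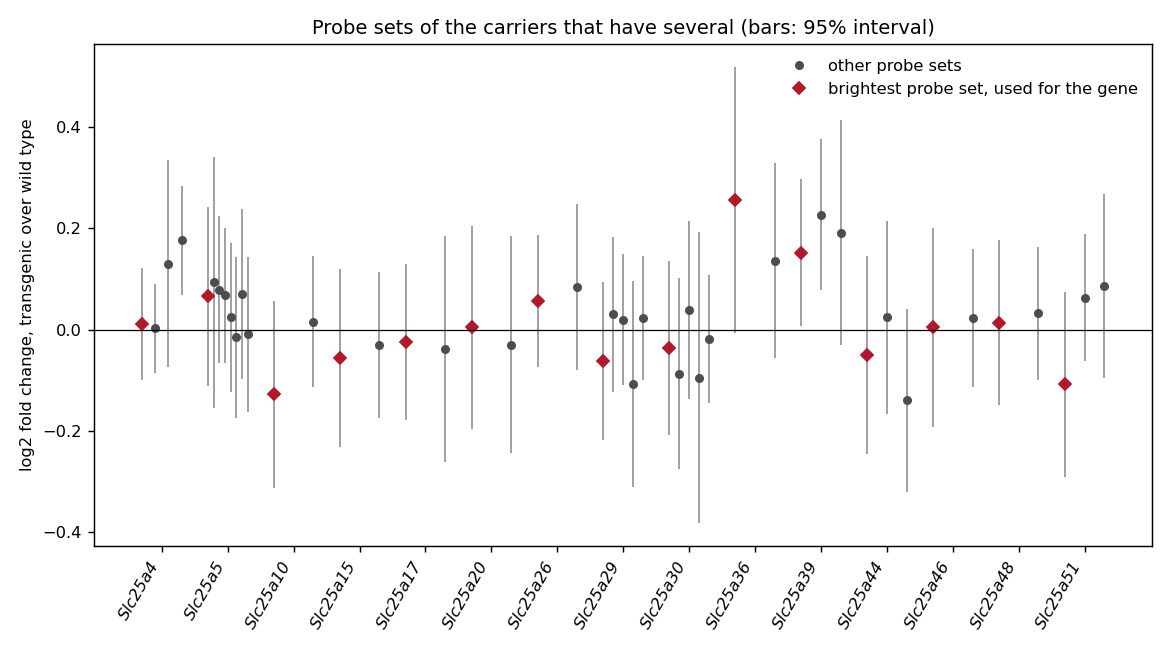
Log2 fold change, transgenic over wild type, of every probe set of the 15 carriers that have several (y axis; the genes along the x axis), with 95% limma intervals; diamonds mark the brightest set. The sets of Slc25a39 and Slc25a36 are all positive, and those of Slc25a4 run from 0.0029 to 0.18.

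The windows just upstream of the annotated starts are shown for Slc25a39 and Slc25a36, the carriers with the smallest p among the 33, and for Slc25a4, whose probe sets differed. The sequences are from RefSeq (GRCm38.p6), 250 bases before the start, read on the minus strand, at chr11:102407518-102407767, chr9:97111042-97111291 and chr8:46211063-46211312. Capitals mark matches to the motifs given in the next paragraph.
Slc25a39: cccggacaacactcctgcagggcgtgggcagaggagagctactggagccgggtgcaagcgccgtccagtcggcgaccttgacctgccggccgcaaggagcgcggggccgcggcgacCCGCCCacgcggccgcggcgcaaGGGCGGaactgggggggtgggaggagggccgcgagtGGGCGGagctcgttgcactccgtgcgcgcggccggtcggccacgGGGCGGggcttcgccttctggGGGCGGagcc
Slc25a36: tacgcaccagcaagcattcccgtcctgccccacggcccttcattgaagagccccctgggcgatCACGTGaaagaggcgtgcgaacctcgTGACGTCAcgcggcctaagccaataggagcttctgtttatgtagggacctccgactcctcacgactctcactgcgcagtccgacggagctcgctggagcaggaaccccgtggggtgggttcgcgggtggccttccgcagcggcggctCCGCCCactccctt
Slc25a4: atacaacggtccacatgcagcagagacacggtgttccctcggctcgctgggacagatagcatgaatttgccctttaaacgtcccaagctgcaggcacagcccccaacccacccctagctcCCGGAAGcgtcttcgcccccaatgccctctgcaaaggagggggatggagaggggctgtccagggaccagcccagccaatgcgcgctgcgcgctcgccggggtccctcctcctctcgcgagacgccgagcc

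Motifs were searched on both strands as the letters GGGCGG (GC box), CCGGAAG (ETS), CACGTG (E-box), TGACGTCA (cyclic AMP response element) and TNAAGGTCA (ERR), and as the NRF-1 consensus. None of these matches overlapped another in the 3 windows shown. The Slc25a39 window held 5 GC boxes, that of Slc25a36 held an E-box, a cyclic AMP response element and a GC box, and that of Slc25a4 held an ETS match. Windows on chr18 were left out before counting, for the carriers and for all genes alike. Of the 33 carriers, 26 then had RefSeq windows, 35 windows in all. GC boxes were in 80% of these windows and in 42.6% of 21263 windows of protein-coding genes, with a median GC content of 57.2% and 55.6%. The shares for carriers and for all windows were 14.3% and 8.98% for ETS, 17.1% and 6.63% for the E-box, 5.71% and 1.92% for the cyclic AMP response element, 2.86% and 5.18% for NRF-1, and 0% and 0.955% for ERR. The letters are a description of the windows, and nothing was measured at them.

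The signs of the carriers were also counted within each hybridization day. On day 1, 16 of the 33 were positive (47.5% of all genes), and on day 2, 19 were (53.2% of all genes). The sign was the same on both days for 18 members, while 49.3% of all genes kept their sign. The day entered as a block leaves these log2 fold changes as they are, because each day held the genotypes equally.

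Slc25a25 stood farthest from agreement between days, and was chosen for description after its values were seen. This calcium-regulated ATP-Mg/phosphate carrier lay between 8.50 and 9.08 log2 units in the 3 transgenic mice of day 1, against 9.11 to 9.51 in the wild-type mice of that day. On day 2 the transgenic mice read 8.98, 9.25 and 9.44, against 8.66, 9.07 and 8.80 in wild-type mice. The transgenic mice lay below wild type on day 1, with no overlap, and overlapped with higher values on day 2. With 3 arrays per genotype such a separation arises by chance more easily than over both days. Its share among all genes or probe sets within a day was not counted. The shares without overlap given earlier are over both days and do not apply to it. The log2 fold change of Slc25a25 was -0.47 ± 0.16 on day 1 and 0.38 ± 0.13 on day 2 (SE). The difference between the days, 0.85 ± 0.23, had an unadjusted p of 0.00233 and an adjusted p of 0.999 in limma, where 3.04% of all probe sets had an unadjusted p under 0.05 for this difference and 0% passed. Without the smaller chip lot, whose transgenic mouse 1 was the lowest of all, the log2 fold change over both days was 0.12, against -0.04 with it. In all, 2 of the 33 carriers, Slc25a25 and Slc25a39, had an unadjusted p under 0.05 for the difference between days.

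**Figure D4:**
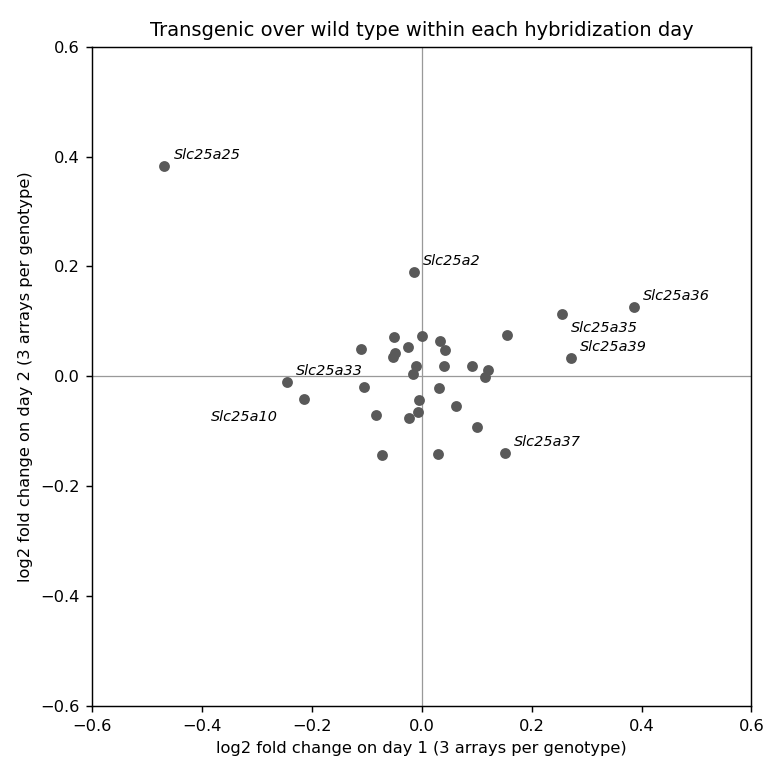
Log2 fold change of the 33 carriers, transgenic over wild type, within hybridization day 1 (x axis) and day 2 (y axis), 3 arrays per genotype on each day. Most points lie near the centre, Slc25a25 lies at -0.47 and 0.38, and Slc25a36 at 0.39 and 0.13.

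How carriers with a shared role varied together was examined over the 12 arrays, after subtracting the mean of each genotype. Each r within a day used these same means, not the genotype means of that day. Genotype differences particular to a day therefore remain in it. Of 6 relations, that between Slc25a20 and Cpt2 was the closest: both act in the carnitine route of fatty acids into the matrix. Pearson's r was 0.71 and Spearman's rho 0.71 (permutation p = 0.00786 and 0.0116, adjusted over the 6 relations 0.0472 and 0.0696). After adjustment r passed 0.05 and rho did not. Cpt2 varied more in transgenic than in wild-type mice (SD 0.166 and 0.045, n = 6 each), and r was not computed within each genotype. Without the 2 arrays farthest from the median of Slc25a20, transgenic mouse 4 and wild-type mouse 7, r was 0.73, and it was 0.52 on day 1 and 0.79 on day 2. Slc25a20 and the mean of the slow fibre genes had r = 0.62 and rho = 0.63 (permutation p = 0.0277 and 0.0317, adjusted 0.0832 and 0.0952). This relation did not pass after adjustment, and r was 0.48 without the same 2 arrays and 0.54 and 0.78 on days 1 and 2. The slow fibre mean was 7.76 ± 0.41 log2 units in transgenic against 8.29 ± 0.71 in wild type (SD, n = 6 each), and its part in the Slc25a20 comparison was not tested.

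The remaining relations did not pass by either measure. Slc25a3 and Slc25a4 had r = 0.57 and rho = 0.55 (permutation p = 0.0573 and 0.0671, adjusted 0.0859 and 0.134), with 0.47 without the 2 farthest arrays, and 0.71 and 0.43 within days. The ADP/ATP carriers Slc25a4 and Slc25a5 had r = -0.62 and rho = -0.36 (permutation p = 0.0501 and 0.255, adjusted 0.0859 and 0.306). Without transgenic mouse 4 and wild-type mouse 7, the farthest from the median of Slc25a4, r was -0.46, and within days it was -0.71 and -0.54. The lowest Slc25a5 values were those of the smaller chip lot, transgenic mouse 1 and wild-type mouse 7. Without these r was 0.03 over the other 10 arrays. Both mice were on day 1, and r over the 6 arrays of day 2 was -0.54, with genotype means taken over all 12 arrays. The mitoferrins Slc25a28 and Slc25a37 had r = -0.02 and rho = -0.08 (permutation p = 0.982 and 0.796, adjusted 0.982 and 0.796), with -0.22 without the 2 farthest arrays, and 0.52 and 0.34 within days. Slc25a4 and the slow fibre mean had r = 0.37 and rho = 0.42 (permutation p = 0.239 and 0.177, adjusted 0.287 and 0.266), with 0.51 without the 2 farthest arrays, and 0.22 and 0.67 within days. Leaving out the smaller lot, an alternative chosen after seeing the data, gave r = 0.84 for Slc25a20 with Cpt2, 0.64 for Slc25a20 with the slow fibre mean, 0.47 for Slc25a3 with Slc25a4, 0.02 for the mitoferrins and 0.75 for Slc25a4 with the slow fibre mean. The arrays share a normalization, and these relations describe 12 mice.

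**Figure D5:**
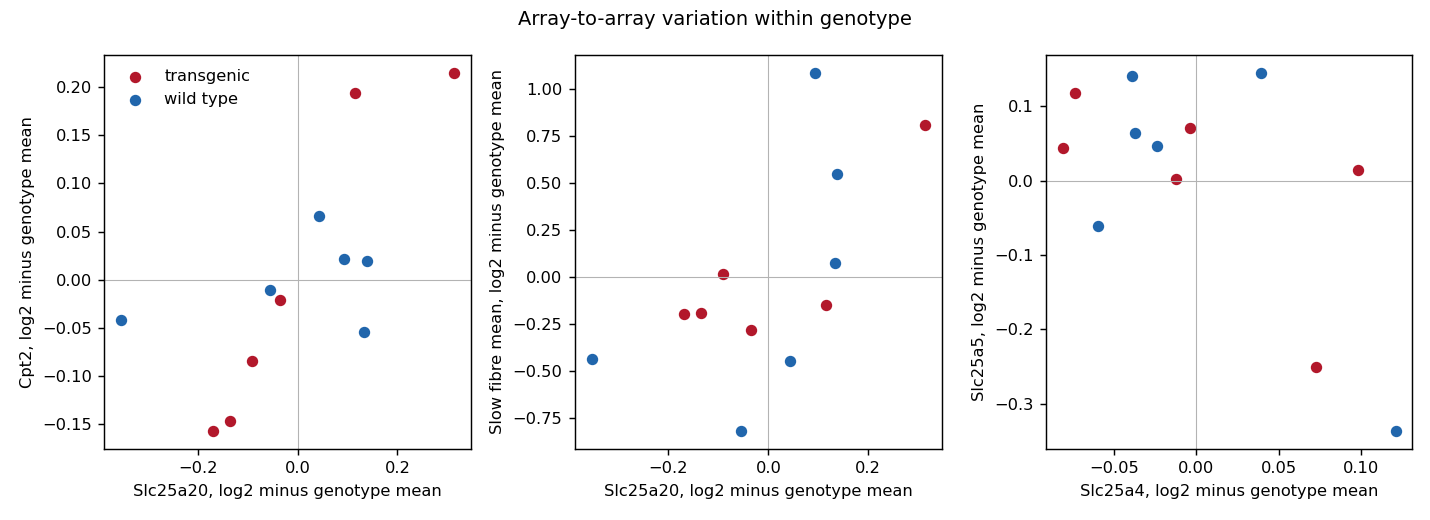
Deviation of each array from its genotype mean in log2 units for Slc25a20 against Cpt2, Slc25a20 against the mean of 7 slow fibre genes, and Slc25a4 against Slc25a5, with transgenic mice in red and wild-type mice in blue (12 arrays). Slc25a20 and Cpt2 have r = 0.71 over both genotypes together, with Cpt2 spread less in wild-type than in transgenic mice. The low Slc25a5 values at the lower right of the last panel are transgenic mouse 1 and wild-type mouse 7.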

How the data were processed

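Total RNA of 12 muscles was hybridized to Affymetrix MOE430A arrays. The authors deposited linear intensity values summarised per probe set with RMA, per the submitters' processing notes; the RMA version is not given in the sources used here. Summaries of this kind compress differences of very bright and very dim probe sets. Intensities were converted to log2 with no pseudocount, and 64 control probe sets were set aside. A two-sided test with limma (3.58.1, R 4.3.3) was run on 22626 probe sets, without a filter. Its p-values were adjusted by Benjamini-Hochberg, with a threshold of 0.05. The code was also run on simulated independent values with planted changes larger than those of the carriers, so its power at their size was not measured. Of the probe sets 20380 had 1 gene symbol in the platform annotation, 691 several and 1555 none, and only the first were named. The 33 carriers matched RefSeq symbols. Prkag3, the gene of AMPK γ3, was not analysed here, so the genotype labels were not checked on it. Array medians were 97.81 to 103.06 intensity units. Intervals are 95% limma intervals. Hybridization day, run and chip lot come from the settings text of each array. Correlations used 100000 permutations. Values by array were given for the main muscle carriers and the 8 carriers with the smallest p. The relation of Slc25a11 with Slc25a12 was not run. Alternatives covered the probe set choice, scaling, dim probe sets, day, run, lot, array weights, the variance prior, a pseudocount of 16 and leaving out each array. Members and lists were chosen with earlier results of these data known. Each array is taken as 1 mouse by its numbered title.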

Additional observations from a re-analysis of the deposited data

Results flagged for a closer look

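A single array stood far from the other 5 of its genotype in 9 of 66 groups tested (33 carriers in each genotype), by the gap to the nearest array over the whole range. Chance alone flags about 1 in 20 groups. The 66 groups come from the same 12 arrays, so their flags are not independent. Whether 9 exceeds chance was therefore not tested. Slc25a5 read 8.54 log2 units in transgenic mouse 1, with the nearest array of that genotype at 8.79. Slc25a10 read 8.47 log2 units in wild-type mouse 7, with the nearest array of that genotype at 8.04. Slc25a22 read 8.71 log2 units in wild-type mouse 7, with the nearest array of that genotype at 8.37. Slc25a26 read 8.10 log2 units in transgenic mouse 1, with the nearest array of that genotype at 7.91. Slc25a38 read 8.15 log2 units in wild-type mouse 7, with the nearest array of that genotype at 7.96. Slc25a44 read 7.76 log2 units in transgenic mouse 1, with the nearest array of that genotype at 8.19. Slc25a44 read 7.86 log2 units in wild-type mouse 7, with the nearest array of that genotype at 8.19. Slc25a51 read 9.05 log2 units in wild-type mouse 10, with the nearest array of that genotype at 9.48. Slc25a53 read 7.50 log2 units in transgenic mouse 4, with the nearest array of that genotype at 7.80. All of these except Slc25a51 and Slc25a53 were on the arrays of the smaller chip lot, and the part of the lot in them was not tested.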

How the results depend on the processing

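The counts of carriers called higher and lower were 0 and 0 under all 23 alternatives, 12 of which left out 1 array each, and the lowest adjusted p of any carrier in limma under any of them was 0.451. Leaving out 1 array gave 15 to 19 positive and 14 to 18 negative carriers and a median log2 fold change of -0.0031 to 0.021; the other alternatives gave 16 to 20 and 12 to 17, and -0.0047 to 0.021. The alternative with only probe sets above the median mean level kept 29 of the carriers, 17 positive and 12 negative. In all, 12 carriers kept their sign under all alternatives and 21 changed it under at least 1, and none of these carriers was called. With arrays shifted to a common median the sign turned for Slc25a45 (0.000226). With the hybridization run as a block it turned for Slc25a23 (-0.013), Slc25a38 (0.020), Slc25a45 (0.024), Slc25a46 (-0.015) and Slc25a48 (-0.00505). Within day 1 it turned for Slc25a2 (-0.015), Slc25a4 (-0.050), Slc25a15 (0.029), Slc25a20 (-0.00977) and Slc25a48 (-0.025). Within day 2 it turned for Slc25a23 (-0.091), Slc25a25 (0.38), Slc25a26 (-0.00185), Slc25a28 (-0.022), Slc25a37 (-0.14), Slc25a38 (0.00423), Slc25a42 (0.036), Slc25a45 (0.043), Slc25a46 (-0.053) and Slc25a47 (0.049). Without the smaller chip lot it turned for Slc25a20 (-0.048), Slc25a23 (-0.045), Slc25a25 (0.12), Slc25a28 (-0.00664), Slc25a38 (0.041), Slc25a42 (0.00807), Slc25a45 (0.017) and Slc25a46 (-0.00656). With array quality weights it turned for Slc25a20 (-0.060), Slc25a23 (-0.011), Slc25a25 (0.051), Slc25a28 (-0.012), Slc25a38 (0.055), Slc25a42 (0.000809), Slc25a45 (0.017) and Slc25a46 (-0.015). With the mean over the probe sets of each gene it turned for Slc25a20 (-0.012) and Slc25a51 (0.014). Leaving out 1 array turned the sign for Slc25a4 (-0.00847 to 0.035), Slc25a5 (-0.00101 to 0.12), Slc25a17 (-0.076 to 0.015), Slc25a20 (-0.066 to 0.038), Slc25a22 (-0.037 to 0.091), Slc25a23 (-0.045 to 0.037), Slc25a25 (-0.13 to 0.065), Slc25a28 (-0.026 to 0.030), Slc25a37 (-0.076 to 0.058), Slc25a38 (-0.027 to 0.034), Slc25a42 (-0.031 to 0.026), Slc25a44 (-0.12 to 0.026), Slc25a45 (-0.033 to 0.020), Slc25a46 (-0.052 to 0.050), Slc25a48 (-0.024 to 0.060) and Slc25a53 (-0.00504 to 0.11). The cause was not tested. A genotype by day interaction was added after seeing the data. No paired analysis was possible because the genotypes share no replicate numbers. The number of arrays limits the precision.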
